A study of Mus musculus with 4 samples.

Results

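The 9 genes described here are listed as markers of the ductal epithelium of the pancreas: the keratin genes Krt7, Krt8, Krt18 and Krt19, the transcription factor genes Sox9 and Onecut2, the secreted protein gene Spp1, the chloride channel gene Cftr and the mucin gene Muc1. They were chosen by symbol as known duct markers and not by a threshold on their measured values, and all 9 matched a row among the 52636 Ensembl genes of the count table. Of these, 8 passed the low-count filter, against 16924 genes in all. RNA-seq had been run on isolated mouse islets in 2 groups with 2 libraries each. Knockout islets carried the genotype Tspan7 y/-, a loss of an X-linked tetraspanin gene with no tissue-restricted Cre named, and control islets were wild type (WT). The design text calls the first group a knockdown (KD), while sample labels and protocol call it a knockout. Age, strain background and pooling are not given in the labels, nor is it stated whether replicates are different animals, so p-values here reflect only how far these 4 libraries vary, possibly for technical reasons.

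Ducts carry the juice of the acinar cells to the gut and add bicarbonate and water to it, and they lie outside the islets. Their cells are known for a simple-epithelial keratin network, in which a type II keratin (Krt7 or Krt8) pairs with a type I keratin (Krt18 or Krt19), for an apical coat of mucin, and for chloride exit through Cftr. Sox9 and the Onecut factors help set up the ductal lineage in the embryonic pancreas. Several of these genes are not restricted to ducts: keratins 8 and 18, with some keratin 7, are also known in mouse islet cells, Onecut2 is known in insulin-secreting cells, and Spp1 is made by macrophages and other cells as well. In RNA from whole islets, fewer cells of a type and less RNA per cell cannot be told apart.

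The 4 libraries held between 7855665 and 9377220 counts. Levels are given as scaled CPM, that is, CPM on library sizes corrected by TMM factors. The targeted gene, Tspan7, gave 3 and 2 counts in the knockout libraries, against 1924 and 1795 in the controls (log2 fold change -9.42 ± 0.25 SE, adjusted p = 3.51e-06, edgeR). It was the only gene past an adjusted p of 0.05, so that 0.00591% of the 16924 tested genes were called. Any 2 libraries differed by more than sampling noise, with a chi-square per degree of freedom of 7.08 or more.

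The label of the list was checked first against its most duct-restricted members, and these were close to absent. Cftr, the apical chloride and bicarbonate channel of duct cells, gave 1 and 2 counts in the knockout libraries and 0 and 0 in the controls. The exact Poisson 95% interval of a count of 0 reaches up to 3.69 counts. A floor of 3 counts equals 0.355 and 0.319 CPM in control replicates 1 and 2. The knockout counts also lie under that floor of 3 counts, so no fold change is given. Krt19, the keratin most used to stain ducts, gave 17 and 5 counts in knockout islets and 6 and 14 in control islets. Sox9, a transcription factor of the duct lineage, gave 14 and 12 counts against 14 and 11. Muc1, the transmembrane mucin of the apical surface, gave 20 and 29 counts against 19 and 27. The exact Poisson 95% interval of the 5 Krt19 counts of knockout replicate 2 ran from 1.62 to 11.7, and that of the 17 counts of knockout replicate 1 from 9.90 to 27.2. All such intervals and floors cover counting error only. The data thus go against the label for its defining markers, and the list is described below as a set of named genes and not as a measure of duct cells.

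Krt7, Krt8 and Krt18 made up 95.8% and 93.7% of the members' counts in knockout replicates 1 and 2, and 95.4% and 85.9% in control replicates 1 and 2. Per kilobase of coding transcript, Krt8 led the list, with a scaled CPM per kilobase of 275 to 389 over the 4 libraries. Krt18 followed at 213 to 264, below Krt8 in all 4 libraries. Both stood among the most abundant transcripts, above 99.6% and 99.2% of the 13197 tested coding genes on this per-length scale. Spp1 came next by its mean, at 12.7 to 114 CPM per kilobase, a range that enclosed that of Krt7, at 33.4 to 43.3, so those 2 neighbours in the order did not differ beyond their spread. Below them lay a gap. Muc1 had 0.926 to 1.71 CPM per kilobase, Onecut2 0.661 to 1.55 and Krt19 0.421 to 1.12, and these 3 overlapped from one to the next. Sox9 lay lower, at 0.283 to 0.401, and Cftr did not exceed 0.0421. The lowest Krt19 value rests on 5 counts, with a Poisson 95% interval of 1.62 to 11.7 counts. It was thus not separated from Sox9 beyond counting error. With lengths taken over all annotated exons in place of 1 coding transcript, the mean of Krt7 was 21.8 in place of 37.6 CPM per kilobase, and it stayed the fourth in order.

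**Figure D1:**
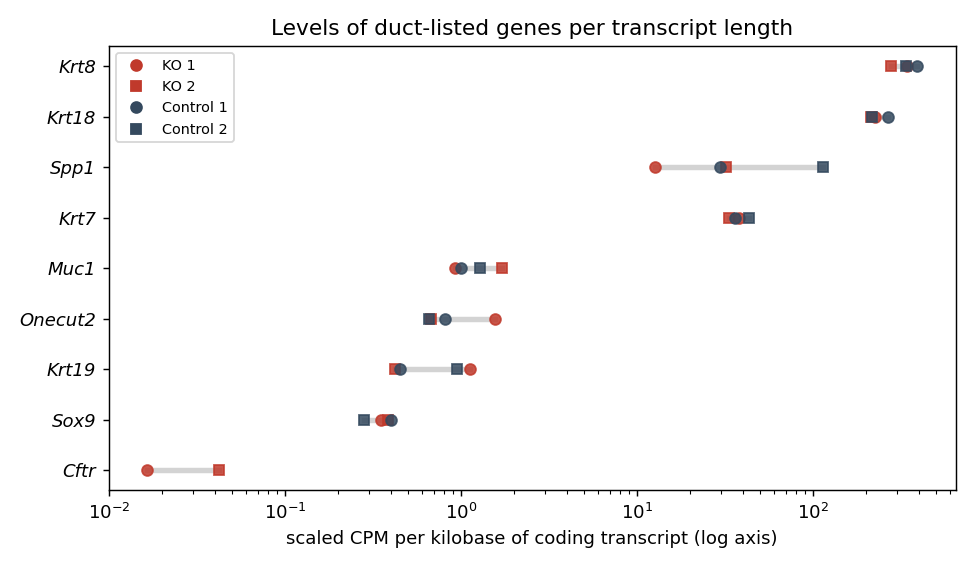
Scaled CPM per kilobase of coding transcript (log axis) of the 9 genes, 1 point per library, with knockout libraries in red and control libraries in dark blue. Krt8 and Krt18 are at 213 or above in every library, Spp1 and Krt7 lie between 12.7 and 114, and the other 5 genes stay at or under 1.71; Cftr is at 0 in both controls and has no point there.

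Among the abundant keratins the groups overlapped in every case. Krt8 encodes the type II keratin that is the main partner of keratin 18. It measured 665 and 539 scaled CPM in knockout islets, against 761 and 658 in control islets. Knockout replicate 1 thus lay just above control replicate 2, and the log2 fold change was -0.24 ± 0.15 (95% CI -0.59 to 0.12, unadjusted p = 0.160 and adjusted p = 0.9997 in edgeR). Krt18, its type I partner, had 324 and 306 CPM in knockout and 380.0 and 310.0 CPM in control islets, and the log2 fold change was -0.13 ± 0.15 (95% CI -0.47 to 0.20). Without control replicate 1, the highest library, that difference was 0.02. Krt7, a second type II keratin, had 154 and 137 CPM against 147 and 177, with a log2 fold change of -0.16 ± 0.15 (95% CI -0.50 to 0.19). For each of the 3 keratins the difference was smaller than the larger of its 2 log2 gaps between replicates. These larger gaps were 0.30 for Krt8 (knockout), 0.29 for Krt18 (control) and 0.27 for Krt7 (control). The smaller gap was exceeded for Krt8 (0.21, control) and Krt18 (0.08, knockout), but not for Krt7 (0.17, knockout).

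The paired keratins ranked the libraries alike, with no separation by genotype. Krt8 and Krt18 ranked the 4 libraries in the same order, with control replicate 1 highest, then knockout replicate 1, control replicate 2 and knockout replicate 2. Per coding length there were 1.51 and 1.29 Krt8 transcripts for each Krt18 transcript in knockout replicates 1 and 2, and 1.47 and 1.56 in the controls, or 1.40 ± 0.15 against 1.51 ± 0.06 (SD, n = 2 each). Krt7 did not follow that order, since its highest library was control replicate 2. Counted together, the type II keratins Krt7 and Krt8 stood at 1.67 and 1.45 times the type I keratins Krt18 and Krt19 in knockout islets, and at 1.603 and 1.75 times in control islets. The groups overlapped in all of these ratios.

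All 3 of these keratins share sequence or position with other annotated genes. A processed pseudogene, Krt8-ps, is 98.6% identical to the Krt8 transcript over 941 bases. It was assigned 51 and 44 counts in knockout and 59 and 51 in control libraries, so reads of the 2 copies may have been split to a small extent. A pseudogene related to Krt18, Gm5200, was at 0 in all 4 libraries. On the opposite strand, Krt7 shares 77 exon bases with Gm671 and Krt8 shares 101 with Gm36026. Neither of those genes was analysed here, and without a stated strand setting their reads cannot be told apart from those of the keratins.

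Spp1 varied most of the 9 genes. It encodes osteopontin, a secreted phosphoprotein that binds integrins and CD44. Spp1 had 19.1 and 48.1 scaled CPM in knockout replicates 1 and 2, against 44.7 and 171.5 in control replicates 1 and 2. A single library, control replicate 2, stood far above the others, and knockout replicate 2 lay above control replicate 1. The fitted log2 fold change was therefore large and imprecise, at -1.70 ± 1.06 (95% CI -5.53 to 2.14, unadjusted p = 0.227 and adjusted p = 0.9997 in edgeR), and it was -0.42 without control replicate 2. The difference between the 2 control libraries, 1.94 on the log2 scale or 3.84-fold, ranked first of 10869 genes whose log2 CPM averaged 3 or more when control replicate 2 was set over control replicate 1. The next gene in that order, named after its value was seen, was B3galt1 at 1.79. Between the knockout libraries Spp1 was 2.52-fold higher in replicate 2, which ranked 53rd in that direction, below 19 genes of the acinar list. The unnamed transcript Gm42793, which shares 309 exon bases with Spp1 on the same strand, had 21 and 44 counts in knockout and 36 and 172 in control libraries. Reads in the shared bases may have been split between them or counted in neither, so these counts are not independent of those of Spp1.

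The libraries also differed in acinar RNA, which was lowest in the library where Spp1 was highest. The 22 acinar genes on the list used here summed to 1914 and 8899.7 scaled CPM in knockout replicates 1 and 2, and to 4224 and 170.4 in control replicates 1 and 2. Control replicate 2 thus held the least acinar RNA, 52.2-fold less than knockout replicate 2, while none of the 22 genes was at 0 in all libraries. Apart from control replicate 2, Spp1 and the acinar sum ranked the libraries alike, from knockout replicate 2 through control replicate 1 to knockout replicate 1. Of the 43 genes that differed between the controls at least as far as Spp1 but the other way, 19 were on the acinar list. Macrophage markers, which can accompany Spp1, summed to 91.5 and 79.7 CPM in knockout and 129.6 and 106.7 CPM in control islets, with all 14 tested markers at negative log2 fold changes (median -0.43) and none of the 17 at 0 in all libraries. Leaving out control replicate 1 gave a median of -0.24, and leaving out control replicate 2 gave -0.65. The macrophage sum was highest in control replicate 1 and lowest in knockout replicate 2, unlike Spp1. The sums of stellate and fibroblast markers and of endothelial markers were highest in control replicate 2 and lowest in knockout replicate 1, as Spp1 was. The part of acinar, macrophage or other tissue in the Spp1 values was not tested.

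**Figure D2:**
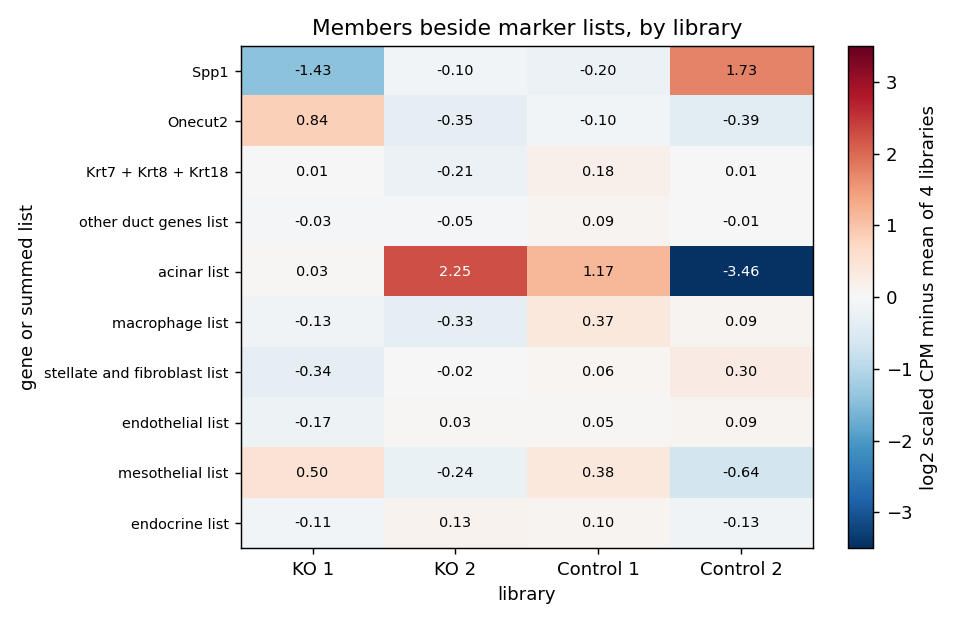
Each row gives, for 1 gene or summed gene list, the log2 scaled CPM in the 4 libraries minus the mean over the 4. Spp1 stands at 1.73 in control replicate 2, where the acinar list stands at -3.46, and Onecut2 stands at 0.84 in knockout replicate 1; the abundant keratins and the list of other duct genes stay between -0.21 and 0.18.

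Receptors of osteopontin were compared as a list of 9 genes, of which 8 were tested. All 8 had negative log2 fold changes, with a median of -0.23 beside 0.00 over all tested genes, and none passed the threshold. In 5 of them both knockout libraries lay below both controls, an arrangement seen in 15.0% of all tested genes. It was not particular to this list. The same arrangement held for 8 of 14 tested macrophage, 7 of 10 endothelial and 6 of 12 stellate and fibroblast markers. The opposite one held for 0, 0 and 2 of them. Cd44, the hyaluronan receptor that also binds osteopontin, had 80.1 and 73.2 CPM in knockout islets and 116 and 148 CPM in control islets. Its log2 fold change was -0.79 ± 0.16 (unadjusted p = 0.00106, adjusted p = 0.9997, edgeR). Cd44 is also made by leukocytes, whose markers were lower in the same libraries, and their part in the difference was not tested. The integrin alpha V gene Itgav had 545 and 518 CPM against 654 and 644, with a log2 fold change of -0.29 ± 0.12 (unadjusted p = 0.0496, adjusted p = 0.9997, edgeR). Itga5, the alpha chain of the fibronectin receptor, stood at -0.57 ± 0.31, and Itgb1, the beta chain shared by many integrins, at -0.18 ± 0.13.

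Onecut2 was the member with the highest fitted ratio of knockout over control, and 1 library set it. It encodes a homeodomain factor that, in an insulin-secreting rat cell line, is known to restrain the granule-docking gene Sytl4. Onecut2 had 25.1 and 11.002 scaled CPM in knockout replicates 1 and 2, against 13.1 and 10.7 in control replicates 1 and 2. Knockout replicate 1 stood alone, with 242 counts, while the other 3 libraries held 83 to 111 counts and overlapped. The log2 fold change was 0.61 ± 0.38 (95% CI -0.30 to 1.53, unadjusted p = 0.153 and adjusted p = 0.9997 in edgeR). It was 1.07 without knockout replicate 2 and -0.11 without knockout replicate 1. In knockout replicate 1 the summed acinar list lay 0.03 above its mean over the 4 libraries and the mesothelial list 0.50 above, on the log2 scale. In control replicate 1 the mesothelial list lay 0.38 above its mean, while Onecut2 stood at -0.10 by the same measure. The part of these lists in the Onecut2 value was not tested. Of the 10869 genes compared, Onecut2 had the 14th highest ratio of knockout replicate 1 over replicate 2, at 1.19 on the log2 scale. Sytl4 had 371 and 475 CPM in knockout and 436 and 409.6 CPM in control islets, a log2 fold change of 0.00 ± 0.15. The related duct factor Onecut1 gave 0 and 2 counts in knockout and 2 and 1 in control libraries and was not tested.

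The low-count members gave no precise estimate. Krt19 had 1.77 and 0.663 CPM in knockout and 0.710 and 1.49 CPM in control islets, so that 1 library of each group was high and the other low. Its log2 fold change of 0.17 ± 0.61 came with a 95% CI of -1.23 to 1.58. Sox9 had 1.45 and 1.59 CPM against 1.66 and 1.17, with both knockout libraries between the controls (0.11 ± 0.44, 95% CI -0.91 to 1.13). Muc1 had 2.08 and 3.84 CPM against 2.25 and 2.87, with both controls between the knockout libraries (0.18 ± 0.41, 95% CI -0.75 to 1.11). A log2 change of 1 upwards lies within all 3 intervals.

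**Figure D3:**
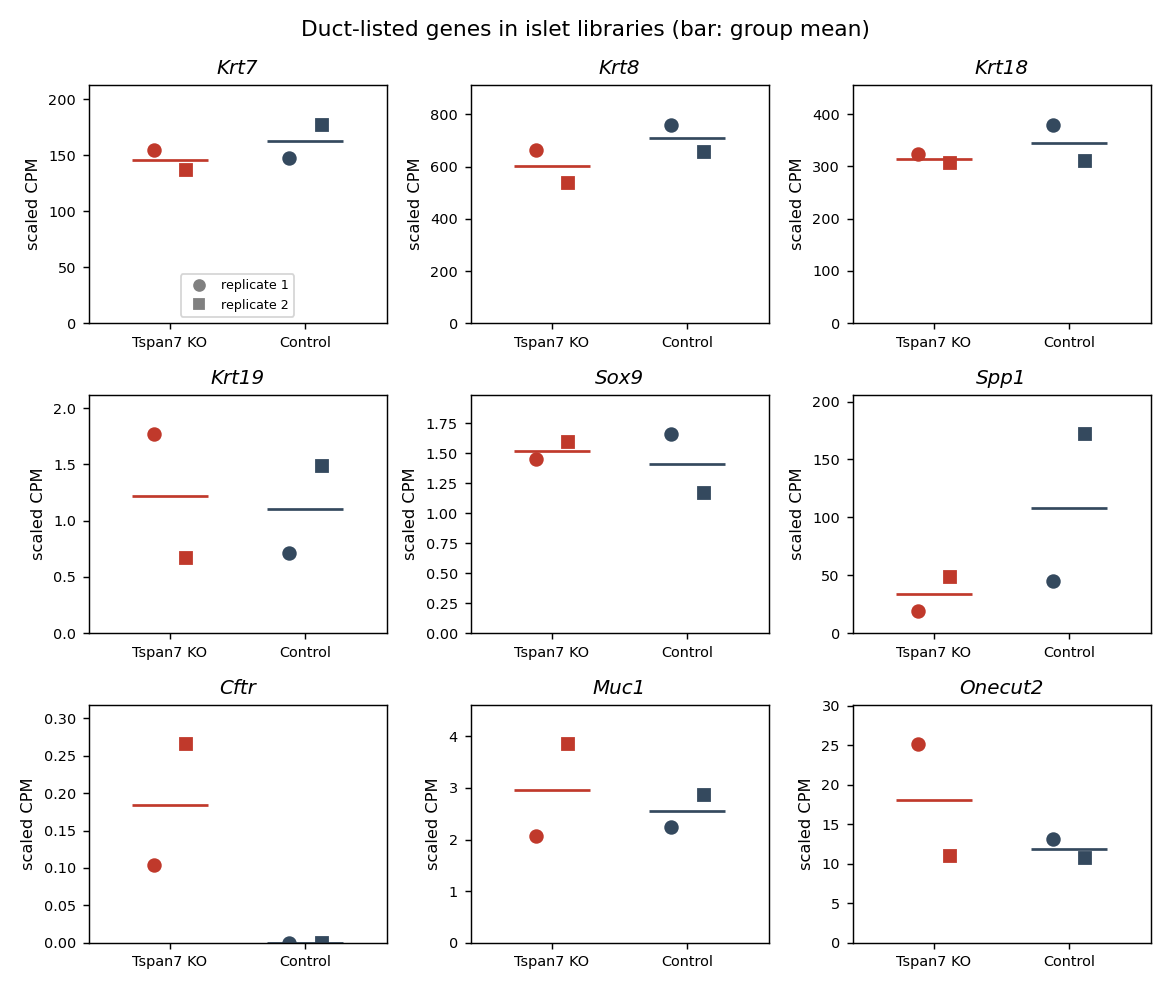
Scaled CPM (linear axes from 0) of each of the 9 genes in knockout islets (red, left) and control islets (dark blue, right), with a circle for replicate 1, a square for replicate 2 and a bar at the group mean. Spp1 is high in control replicate 2 (171.5) and Onecut2 in knockout replicate 1 (25.1), and for all 8 tested genes the groups overlap.

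Over the list, 0 of 8 tested members passed the threshold in edgeR, and 0 had an unadjusted p under 0.05, a share that was 3.51% among all tested genes. DESeq2 and limma-voom likewise called 0 of 8, with 0 and 1 at an unadjusted p under 0.05. Of all 16924 tested genes, 242 in DESeq2 and 568 in limma-voom had an unadjusted p under 0.05. The log2 fold changes were positive for 4 members and negative for 4, with a median of -0.01 beside 0.00 over all tested genes. In none of the 8 did the groups separate, whereas they did in 30.3% of all tested genes. The summed level of all 9 genes was 1193 and 1047 CPM in knockout islets, against 1351 and 1333 CPM in control islets. Both knockout sums thus lay below both control sums, an arrangement seen in 15.0% of single tested genes. Of these sums, Krt8 made up 665 and 539 CPM in knockout replicates 1 and 2, against 761 and 658 CPM in control replicates 1 and 2. Spp1 made up 19.1 and 48.1 CPM against 44.7 and 171.5 CPM. The source of the gap between the sums was not tested.

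A list of 22 other duct genes held both present and absent transcripts. Mmp7, a matrix protease gene, was at 0 in all libraries, and Lcn2 and Wfdc2 gave at most 1 count in any library. In contrast, the epithelial adhesion genes Cdh1 and Epcam, the tight-junction gene Cldn4 and the membrane glycoprotein gene Prom1 each had 130.9 CPM or more in every library. Of 17 tested genes 8 had positive and 9 negative log2 fold changes, with a median of -0.04, and 0 passed. Leaving out 1 library at a time gave medians between -0.07 and 0.07. Dcdc2a, a doublecortin-domain gene of primary cilia, had 73.2 and 73.2 CPM in knockout and 55.6 and 42.1 CPM in control islets. Its log2 fold change was 0.58 ± 0.16 (unadjusted p = 0.00720, adjusted p = 0.9997, edgeR), the smallest p of the list, and the groups did not overlap. Epcam had 194 and 149.5 CPM against 207 and 219, with a log2 fold change of -0.31 ± 0.16. Cldn4 stood at -0.28 ± 0.18 and the related tight-junction gene Cldn7 at -0.25 ± 0.16. Tff2, a secreted trefoil peptide, had 3.53 and 15.2 CPM in knockout and 7.69 and 2.02 CPM in control islets, which is the order of the libraries by acinar RNA.

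**Figure D4:**
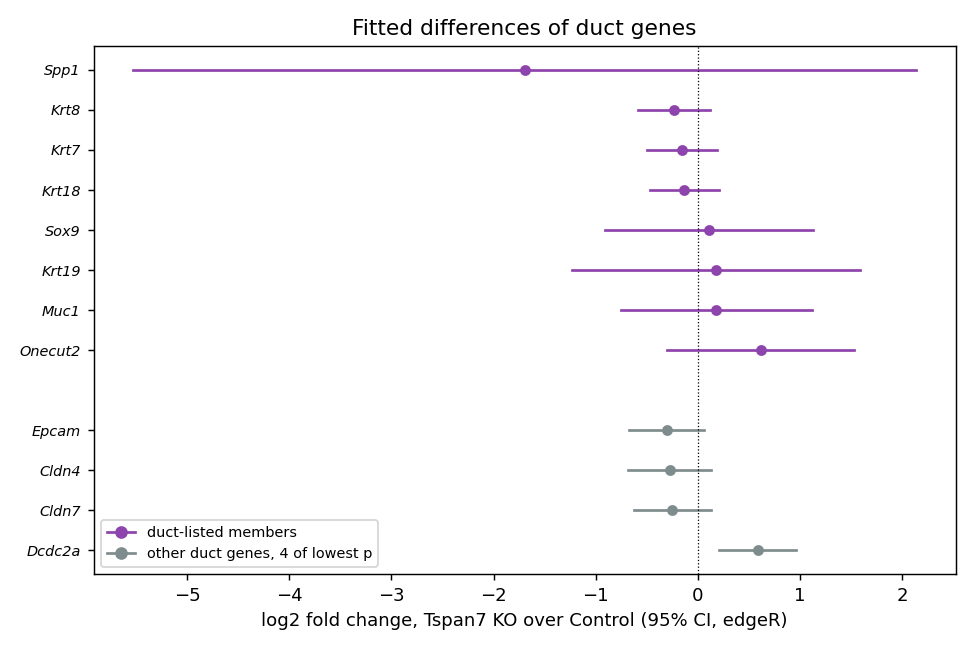
Log2 fold change of knockout over control islets with its 95% confidence interval from edgeR, for the 8 tested members (purple) and the 4 genes of lowest p among the other duct genes (grey). All 8 member intervals cross 0; Spp1 has the widest, from -5.53 to 2.14, and the interval of Dcdc2a, 0.21 to 0.96, lies above 0 although it did not pass after adjustment.

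Genes of bicarbonate and fluid secretion, the task of duct cells, ranged from absent to abundant. The secretin receptor gene Sctr gave 1 count in 1 library, the water channel gene Aqp5 was at 0, and the carbonic anhydrase gene Car2 gave at most 2 counts. The kinase gene Wnk1, in general use, had 557.8 CPM or more in every library. Of 23 genes 16 were tested, with 6 positive and 10 negative log2 fold changes, a median of -0.08 and 0 past the threshold. The water channel gene Aqp1, which endothelium also makes, had 0.623 and 1.06 CPM in knockout and 1.77 and 2.76 CPM in control islets, from 6 and 8 against 15 and 26 counts. Its log2 fold change was -1.46 ± 0.50 (unadjusted p = 0.0184, adjusted p = 0.9997, edgeR). The cotransporter gene Slc12a2 stood at -0.30 ± 0.17, the potassium channel gene Kcnn4 at -0.63 ± 0.48 and Vipr1, the receptor of vasoactive intestinal peptide, at 0.16 ± 0.16. The bicarbonate cotransporter gene Slc4a4 had 23.5 and 22.4 CPM against 20.6 and 28.2.

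Other keratins were scarce. Of 14 genes 4 were tested, none passed, and Krt13 was at 0. Krt5, a basal-cell keratin, had 3.32 and 0.663 CPM in knockout and 0.592 and 2.23 CPM in control islets, with the same libraries high as for Krt19. Krt222 stood at -0.36 ± 0.21, Krt80 at -0.40 ± 0.39 and Krt10 at 0.07 ± 0.28. The desmosome and plakin genes, which anchor keratin filaments to junctions, were well expressed. All 10 that matched a row were tested, 8 with negative and 2 with positive log2 fold changes and a median of -0.36, and 0 passed. The median was -0.10 without knockout replicate 2 and -0.08 without control replicate 2. The desmosomal cadherin gene Dsc2 had 29.4 and 29.3 CPM in knockout and 39.2 and 36.3 CPM in control islets (log2 fold change -0.36 ± 0.14, unadjusted p = 0.0353, adjusted p = 0.9997, edgeR). Its relative Dsg2 had 105.8 and 92.1 CPM against 117 and 138 (-0.36 ± 0.15). The plakin gene Plec stood at -0.36 ± 0.21 and Jup, plakoglobin, at -0.45 ± 0.26.

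Notch and Yap signalling, which act upstream of Sox9 in the embryonic pancreas, gave 16 tested genes of 18, with 6 positive and 10 negative log2 fold changes, a median of -0.08 and 0 past the threshold. The receptor gene Notch2 had 9.04 and 7.16 CPM in knockout and 11.2 and 11.9 CPM in control islets (-0.51 ± 0.23). Wwtr1, the Yap relative also called Taz, stood at -0.57 ± 0.26. Of the matricellular Yap targets, Ccn2 stood at -1.03 ± 0.48 and Ccn1 at 0.50 ± 0.27. Ccn2 had its highest level, 15.1 CPM, in control replicate 2, the library that was also highest for Spp1, against 3.84 to 6.34 CPM in the other 3.

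The genes nearest to Krt19 in their centred log2 CPM over the 4 libraries were Clmn, Polr3g, Mctp2, Hspbap1 and Il15ra, out of 9835 named genes whose log2 CPM averaged 3 or more. Their Euclidean distances ran from 0.22 to 0.33 on the log2 scale. Clmn, the nearest, had 11.9 and 6.50 CPM in knockout and 6.27 and 11.6 CPM in control islets, high in the same 2 libraries as Krt19. That likeness is what the search selected for, so it is no evidence of a link between the genes. The Krt19 profile itself rests on 5 to 17 counts a library.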

How the data were processed

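Raw counts per Ensembl gene were deposited by the authors as 1 table with a column per library. HISAT2, featureCounts and the genome build GRCm39 are named, without versions, in the submitters' processing notes. For annotation, strand setting and multi-mapping reads, the settings were not given in the sources used here. Library kits were directional, per the labels' protocols. Symbols and transcript lengths came from GENCODE M21, built on GRCm38, which named 52403 of the 52636 identifiers, so no coordinates are given. The fit used edgeR 4.0.16 (R 4.3.3), with filterByExpr at a minimum count of 10, TMM scaling, and a two-sided quasi-likelihood test (robust, F statistic) without covariates. P-values were adjusted by Benjamini-Hochberg over all 16924 tested genes, and the threshold was 0.05. Standard errors and intervals come from that fit. DESeq2 1.42.0 and limma-voom (limma 3.58.1) were alternatives. Log2 CPM values used a prior count of 2. An exact permutation test of 2 against 2 libraries cannot go below 0.333 and was not run. Copies of the members were sought with blastn at 90% identity or more over at least 300 bases. Of the listed genes, 1 (Eppk1) had no matching row and was not analysed here.

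The members and gene lists were chosen by name, but with earlier results of these data known, so lists are described by counts and medians without a test. Named genes were all 9 members, Tspan7, for each list at most 4 tested genes, those of lowest p, and the 5 genes nearest to Krt19; others were named after their values were seen. The fitting steps were tested on simulated data.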

Additional observations from a re-analysis of the deposited data

How the results depend on the processing

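With other settings the number of genes higher and lower in knockout islets, 0 and 1 as reported, was 0 and 6 in DESeq2, 15 and 47 without the low-count filter, and 1 and 5 with the replicate block. Replicate numbers are shared by label only, and the replicate 1 minus replicate 2 differences of the groups correlated at -0.30 over genes. A crossed pairing, added after the data were seen, gave 1 and 1. With 1 library left out, the numbers ran from 0 to 33 higher and from 1 to 15 lower, both highest without control replicate 1; the lone library of an arm was then assumed to vary like the others. The members' median log2 fold change, -0.01, ran from -0.21 to -0.057 with 1 library left out. Of 80 single-member values under 10 alternatives, 73 kept their direction and stayed uncalled. Direction turned for Krt19 (-0.73 without knockout replicate 1 and -0.24 without control replicate 1, up to 0.81), Onecut2 (-0.11 without knockout replicate 1, up to 1.07), Muc1 (-0.30 without knockout replicate 2, up to 0.58), Krt18 (0.021 without control replicate 1, down to -0.27) and Sox9 (-0.13 without control replicate 2, up to 0.37). With the replicate block Spp1 was called lower (log2 fold change -1.54, edgeR adjusted p = 2.61e-05), in a fit with 1 residual degree of freedom. The cause of these shifts was not tested. Scaling moved the median of all genes by less than 0.1. Krt19, Sox9, Muc1 and Cftr rest on at most 29 counts in any library, and Cftr on at most 2.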

Other observations

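Marker lists of the other cell types in the tissue were summed beside the duct-listed genes. The acinar list had a median log2 fold change of 1.28 over 21 tested genes, and this was -0.21 without knockout replicate 2 and 5.85 without control replicate 1. Of these genes 20 had positive values, and 1, the transcription factor gene Bhlha15, stood at -0.26 ± 0.14. Stellate and fibroblast markers summed to 198 and 247 scaled CPM in knockout islets, against 261 and 308 CPM in control islets (12 tested, 3 positive and 9 negative, median -0.45). Leaving out control replicate 1 gave a median of -0.79, and leaving out control replicate 2 gave -0.19. Within that list the matrix protein gene Sparc stood at -0.65 ± 0.16 (unadjusted p = 0.00370, adjusted p = 0.9997, edgeR) and the collagen gene Col3a1 at -0.68 ± 0.22. The smooth-muscle actin gene Acta2 stood at 0.69 ± 0.44, with both knockout libraries above both controls. Of the 12 tested genes, 6 had both knockout libraries below both controls and 2 had both above. Among all tested genes these shares were 15.0% and 15.3%. Endothelial markers summed to 479.5 and 551 CPM against 558 and 576 CPM (10 tested, 2 positive and 8 negative, median -0.21, and -0.12 without knockout replicate 1). Their log2 fold changes ran from -0.91 ± 0.24 for the secreted vessel protein gene Egfl7 to 0.13 ± 0.18 for the growth factor receptor gene Kdr. The endocrine list, 16 tested genes, was balanced, with 8 positive and 8 negative values and a median of 0.02. Schwann cell markers summed to 15.5 and 13.7 CPM in knockout and 13.3 and 17.0 CPM in control islets. Among mesothelial markers, which share keratins with ducts, Wt1 and Bnc1 were at 0, and Msln had 22.4 and 10.3 CPM in knockout and 20.1 and 8.08 CPM in control islets, high in replicate 1 of each group. None of the genes on these lists passed the threshold.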
